A study of Mus musculus with 9 samples.

Results

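The genes described here are 10 components of Wnt signalling, *Wnt5a*, *Fzd1*, *Fzd2*, *Fzd7*, *Lrp5*, *Lrp6*, *Sfrp1*, *Dkk3*, *Ctnnb1* and *Axin2*, chosen by name, and all 10 were among the 15184 genes of the RNA-Seq table. PolyA+ RNA was measured in 9 libraries of mouse embryonic fibroblasts (MEFs), 3 of empty vector cells and 3 each of the lines SAM1 and SAM2, whose genotype label is Hnrnpk_SAM. WT MEFs had been transduced with lentiMPHv2 and with lentiSAMv2 carrying guide RNAs meant to activate *Hnrnpk*, a system in which an inactive Cas9 recruits transcriptional activators to a promoter, and had been kept under drug selection. The controls carry the genotype label Empty vector, while the study's methods describe lentiSAMv2 with a nontargeting guide. The sequence printed there for the nontargeting guide is identical to that printed for an *Hnrnpk* guide. The labels do not say which guide each SAM line carried, and the sources do not state if a line's 3 libraries are 3 cultures, so the p-values measure the spread between libraries, which may be technical. Values are counts that the authors divided by a size factor for each library, called normalized counts below, and ± gives the SD over a group's 3 libraries (n = 3).

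*Hnrnpk*, the targeted gene, had normalized counts of 25058, 26098 and 26164 in empty vector, 24102, 24044 and 23619 in the libraries labelled SAM1 and 26608, 26859 and 26221 in those labelled SAM2. The fold relative to empty vector was 0.928 in SAM1 (limma adjusted p = 0.00252) and 1.03 in SAM2 (limma adjusted p = 0.159). Its direction in SAM1 turned with the scaling, while SAM2 stayed above empty vector. As deposited, the log2 fold changes in SAM1 and SAM2 were -0.11 and 0.044. They were 0.094 and 0.22 after quantile normalization (limma adjusted p = 0.00502 and 4.59e-06). With the same sum per library they were 0.035 and 0.15 (limma adjusted p = 0.266 and 0.000335). SAM1 and SAM2 below therefore name libraries by their labels. The study itself reported higher *Hnrnpk* RNA by qRT-PCR and higher HNRNPK protein by Western blot in its SAM MEFs. Libraries held 41759636 to 49026626 reads on the listed genes. All 12 fibroblast markers examined were in the table, with summed normalized counts of 1070100 to 1167580 in empty vector, 881330 to 943731 in SAM1 and 1188020 to 1227010 in SAM2. *Col1a1*, *Col1a2* and *Fn1* made up most of these sums, and other markers moved both ways. In the same order *Vim* held 78530 to 83510, 115724 to 121955 and 75892 to 76984. *Pdgfrb* held 6211 to 6966, 12110 to 12856 and 9489.5 to 9551. *Pdgfra* held 9161 to 10143, 6038 to 6636 and 5359 to 5651. *Thy1* held 67573 to 70932, 42837 to 44778 and 56150.5 to 57422. Of 7 epithelial markers, *Epcam*, *Krt18*, *Krt5* and *Krt14* were not in the table and the other 3 summed to 388 to 429 in empty vector, 3733 to 3884 in SAM1 and 243 to 275 in SAM2. Of 6 endothelial markers, 4 were in the table, with sums of 301 to 357, 4613 to 4988 and 638 to 689 in the same order. *Kdr* alone held 176 to 238, 4490 to 4877 and 504 to 555 of these, while *Cdh5* stood at 71.6 to 84.0, 61.5 to 69.3 and 37.1 to 69.2. Of 5 skeletal muscle markers 2 were in the table, *Des* and *Acta1*, with sums of 88.8 to 127, 338 to 365 and 412 to 457, and of 6 blood cell markers 2, *Cd68* and *Lyz2*, with sums of 393 to 505, 673 to 734 and 585 to 621. *Lyz2* alone held 67.8 to 89.0, 161 to 204 and 38.6 to 54.7. Of 6 markers of neurons and glia 2 were in the table, with sums of 751 to 847, 881 to 953 and 728 to 823. These 2 moved in opposite directions, with *Tubb3* at 249 to 279, 768 to 826 and 541 to 585. *Mbp* stood at 502 to 568, 113 to 127 and 187 to 238. The part of these markers in the results below was not tested. In bulk RNA, fewer cells of a type and less RNA per cell cannot be told apart.

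Wnt proteins are secreted ligands that bind Frizzled receptors at the cell surface. With the co-receptors LRP5 or LRP6 they inactivate a destruction complex built on Axin and APC, so that beta-catenin accumulates and acts with TCF/LEF factors on target genes. Other Wnt proteins signal without beta-catenin to cell polarity and movement, and secreted proteins of the SFRP and DKK families limit ligand or receptor access. Fibroblasts both make and receive Wnt signals, and in them beta-catenin also links cadherins to the cytoskeleton.

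RefSeq promoter windows (table built on GRCm38.p6) were found for 4 of the 10 genes, *Fzd7*, *Fzd1*, *Ctnnb1* and *Axin2*, and not for the other 6. *Axin2* is shown because it is a textbook target of TCF/LEF factors, and *Fzd7* because it is the one gene of the 4 with a match to the motifs searched. Both windows matched GRCm39 exactly at 1 place and are given 5′ to 3′ on the plus strand, up to the base before the annotated gene start. They lie at chr11:108810925-108811168 for *Axin2* and chr1:59521056-59521268 for *Fzd7*.
Axin2: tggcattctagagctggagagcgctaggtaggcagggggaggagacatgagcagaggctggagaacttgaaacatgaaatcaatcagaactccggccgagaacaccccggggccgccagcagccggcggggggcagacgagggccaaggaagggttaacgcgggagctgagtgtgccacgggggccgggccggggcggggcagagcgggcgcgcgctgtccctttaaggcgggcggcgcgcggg
Fzd7: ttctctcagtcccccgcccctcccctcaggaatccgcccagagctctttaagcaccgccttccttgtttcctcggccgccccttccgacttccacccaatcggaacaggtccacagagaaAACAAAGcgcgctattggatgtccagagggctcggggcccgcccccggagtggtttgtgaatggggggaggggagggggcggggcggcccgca
The capitals mark the only match to 4 motifs of the TCF/LEF type, which were searched on both strands. Among 32851 mouse promoters the same 250 bases held CTTTGAA in 4.46%, the motif CTTTGAT in 3.21%, the motif CTTTGTA in 3.20% and the motif CTTTGTT in 5.03%, and at least 1 of the 4 in 14.8%. The match in *Fzd7* is CTTTGTT on the minus strand, 130 to 124 bases before the RefSeq start.

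Across the 10 genes, 9 differed from empty vector in SAM1 (6 higher, 3 lower) and 10 in SAM2 (6 higher, 4 lower) at a limma adjusted p below 0.05, adjusted over all genes of the table. These counts stand against a wide background, since 74.3% of all genes passed in SAM1 (37.3% higher, 36.9% lower) and 70.5% in SAM2 (35.2% higher, 35.3% lower). With the 6 libraries of both lines set against the 3 empty vector libraries, 5 of the 10 genes were higher and 3 lower, beside 53.9% of all genes (26.8% higher, 27.0% lower). In this pooled fit the spread also includes the difference between the lines. The median log2 fold change of the 10 genes was 0.17 in SAM1 and 0.21 in SAM2, beside 0.0093 and -0.0015 over all genes. Between SAM2 and SAM1, 3 of the 10 genes were higher in SAM2 and 5 lower, beside 60.3% of all genes (31.1% higher, 29.2% lower). Both comparisons with empty vector share the same 3 control libraries. When every library was scaled to the same sum instead, the median of all genes moved by 0.12 for both lines together, 0.14 for SAM1 and 0.10 for SAM2, and the share of higher genes among those that passed went from 49.8% to 65.3%, from 50.3% to 63.8% and from 49.9% to 61.3%. Under that scaling 5 of the 10 genes were higher and 2 lower in both lines together, 6 and 2 in SAM1, and 6 and 3 in SAM2.

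**Figure D1:**
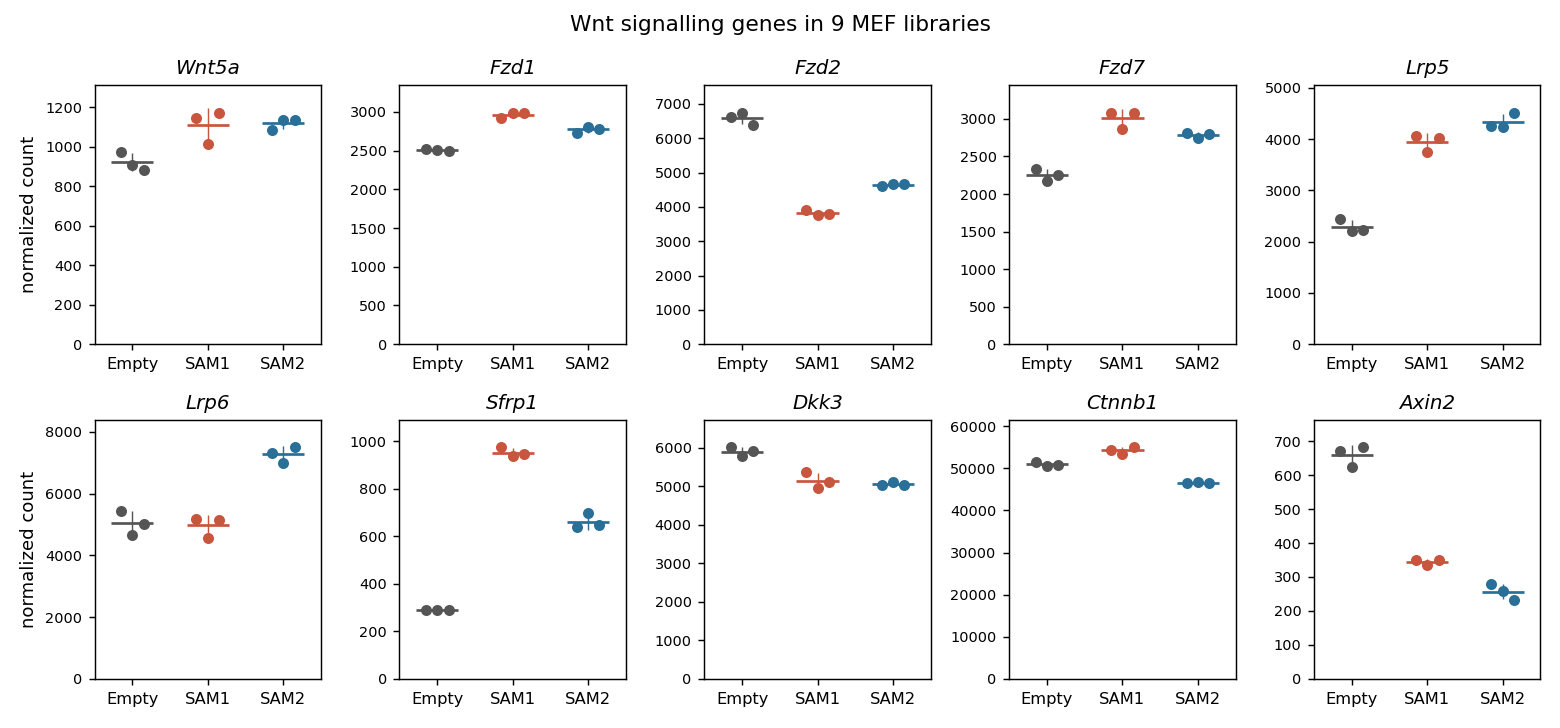
Normalized counts of the 10 genes in each of the 9 libraries, on linear axes from 0, with the mean (horizontal line) and SD (vertical line) of 3 libraries per group. *Sfrp1* and *Lrp5* lie higher and *Fzd2* and *Axin2* lower in all 6 SAM libraries than in any empty vector library, while *Lrp6* stands apart only in SAM2.

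*Wnt5a* (chr14:28226495-28249405, plus strand, GRCm39) encodes a ligand known mainly for signalling without beta-catenin. Its normalized counts were 973, 907 and 884 in empty vector, 1147, 1012 and 1173 in SAM1 and 1084, 1137 and 1136 in SAM2. Every SAM library was above every empty vector library, and the libraries of the lines overlapped each other. The rise was 1.21-fold in SAM1 (log2 fold change 0.27, SE 0.058, limma adjusted p = 0.000949) and 1.21-fold in SAM2 (log2 fold change 0.28, SE 0.058, limma adjusted p = 0.000713). Between the lines it did not pass the test, with a log2 difference of 0.013 (95% interval -0.11 to 0.14, limma adjusted p = 0.854). With the same sum per library the log2 fold change in SAM1 was 0.41. The opposite-strand gene *Gm2670* overlaps its exons in the annotation and held 1.85 to 18.8 normalized counts; the strand setting of the counting is not given in the sources used here.

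The rise of *Wnt5a* was smaller than that of many genes on its chromosome. The other 512 listed genes of chromosome 14 had a median log2 fold change of 0.53 in SAM1 and 0.57 in SAM2, and 73.2% and 74.8% of them were higher, against 37.3% and 35.2% of all genes. This was uneven along the chromosome. The 73 genes that start within 5 Mb of *Wnt5a* had medians of 0.12 and 0.16. At a split chosen after the values were seen, the 164 genes up to 15 Mb beyond *Wnt5a* in the direction of increasing coordinates, or on its other side, had medians of 0.18 and 0.21, while the 348 genes further along had medians of 0.64 and 0.69 and 83.9% and 84.2% of them were higher. The log2 fold changes of *Wnt5a*, 0.27 and 0.28, lay above the medians of the genes within 5 Mb. They were 0.26 and 0.29 below the median of the chromosome. The number of copies of chromosome 14 in these cells was not measured here. By karyotype, the study reported more chromosomes and chromosomal abnormalities in its SAM MEFs. Any link of those to the values here was not tested.

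**Figure D2:**
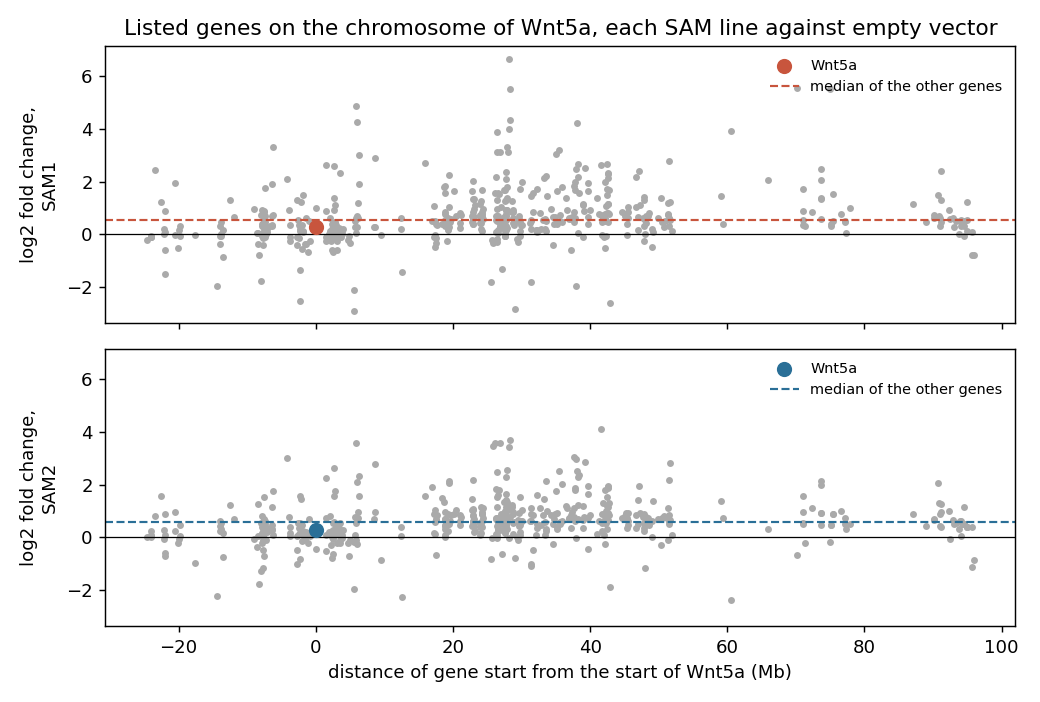
Log2 fold change of each listed gene on the chromosome of *Wnt5a* against its distance in Mb from the start of *Wnt5a*, for SAM1 (top) and SAM2 (bottom), with *Wnt5a* as the large point and the median of the other 512 genes as a dashed line. Genes more than 15 Mb to the right lie mostly above 0 in both lines, with medians of 0.64 and 0.69. The genes at other positions have medians of 0.18 and 0.21, and *Wnt5a* among them is at 0.27 and 0.28.

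The pathway lists used below hold the 10 genes wherever they belong, and the counts of each list stand beside the 74.3% of all genes that passed in SAM1, the 70.5% in SAM2 and the 60.3% between the lines. Of 21 genes listed for Wnt ligands and their secretion, 13 were in the table. In SAM1 9 were higher and 2 lower, and in SAM2 8 were higher and 4 lower, with median log2 fold changes of 0.71 and 0.28 (scaled to the same sum, SAM2 had 8 higher and 2 lower; after quantile normalization, SAM1 had 7 higher and 3 lower). *Wnt10b*, a ligand of the beta-catenin branch, rose from 82.9, 81.9 and 87.6 in empty vector to 506, 489 and 518 in SAM1 and 402, 454 and 419 in SAM2, or 5.99-fold and 5.05-fold (limma adjusted p = 1.66e-12 and 7.4e-12). These are much larger folds than that of *Wnt5a*. *Wnt7b* rose from 6 reads over the 3 empty vector libraries to 53 in SAM1 and 50 in SAM2, a ratio of 7.96 (95% counting interval 3.43 to 22.7) and 7.33 (3.14 to 20.9). *Wnt2* had 2 reads over the empty vector libraries, 61 in SAM1 and 18 in SAM2, so its ratios of 27.5 (7.29 to 232) and 7.92 (1.89 to 70.3) are loosely bounded; these intervals cover counting error only. *Wnt7a* separated the lines, at 82.9, 75.6 and 82.9 in empty vector, 439, 458 and 448 in SAM1 and 39.6, 36.2 and 27.8 in SAM2 (log2 difference of SAM2 from SAM1 -3.68, limma adjusted p = 5.38e-11). The listed genes for secretion did not rise. *Wls*, at 29536 ± 166 in empty vector, fell to 0.738 of it in SAM1 and 0.897 in SAM2 (limma adjusted p = 1.56e-09 and 5.11e-05). *Porcn* passed in neither line (limma adjusted p = 0.119 and 0.162).

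The Frizzled receptors changed in opposite directions. *Fzd2* (chr11:102495222-102498884, plus strand) fell from 6626, 6745 and 6398 in empty vector to 3916, 3764 and 3797 in SAM1 and 4612, 4656 and 4653 in SAM2. The 3 groups did not overlap, and SAM1 was the lowest. It stood at 0.581 of empty vector in SAM1 (log2 fold change -0.78, SE 0.03, limma adjusted p = 4.99e-11) and 0.704 in SAM2 (log2 fold change -0.51, SE 0.03, limma adjusted p = 5.78e-09). SAM2 was higher than SAM1 by 0.28 on the log2 scale (SE 0.03, limma adjusted p = 3.87e-06).

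*Fzd7* (chr1:59521269-59534685, plus strand), the receptor whose promoter window holds the motif shown above, moved the other way. It had 2330.4, 2169 and 2258 in empty vector, 3083, 2859.8 and 3080.1 in SAM1 and 2817, 2744 and 2801 in SAM2, so that all 6 SAM libraries were above the empty vector libraries. The fold was 1.34 in SAM1 (log2 fold change 0.42, SE 0.039, limma adjusted p = 4.41e-07) and 1.24 in SAM2 (log2 fold change 0.31, SE 0.039, limma adjusted p = 1.01e-05). The 66 listed genes within 5 Mb of *Fzd7* had median log2 fold changes of -0.53 and -0.43, with 7 and 4 of them higher, so that *Fzd7* rose where its neighbours mostly fell. *Fzd1* (chr5:4803839-4808035, minus strand) rose less, from 2523, 2506 and 2491 to 2915, 2981 and 2989 in SAM1 (log2 fold change 0.24, SE 0.029, limma adjusted p = 6.57e-06) and 2729.7, 2809.5 and 2785 in SAM2 (log2 fold change 0.15, SE 0.029, limma adjusted p = 0.000596). With the same sum per library the rises of *Fzd1* were 0.38 and 0.25 on the log2 scale. SAM2 was below SAM1 for both receptors, with a log2 difference of -0.094 for *Fzd1* (limma adjusted p = 0.0144) and -0.11 for *Fzd7* (limma adjusted p = 0.0277). Without SAM1 replicate 3 or SAM2 replicate 1 neither difference between the lines passed, and that of *Fzd7* also failed without SAM1 replicate 1, SAM2 replicate 2 or SAM2 replicate 3.

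Of 10 Frizzled receptor genes, 9 were in the table. In SAM1 4 were higher and 4 lower, and in SAM2 7 were higher and 1 lower. *Fzd5* rose from 347 ± 21.3 to 695 ± 81.6 and 541 ± 25.2 (limma adjusted p = 9.83e-08 and 9.15e-06), and *Fzd8* rose by 0.33 and 0.52 on the log2 scale (limma adjusted p = 6.69e-05 and 1.1e-06). *Fzd4* was the receptor that separated the lines most, at 373, 315 and 308 in empty vector, 261, 242 and 262 in SAM1 and 653, 571 and 590.1 in SAM2. It was lower than empty vector in SAM1 (limma adjusted p = 0.000882) and higher in SAM2 (limma adjusted p = 5.39e-07).

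Per kb of merged exons, *Fzd2*, *Fzd1* and *Fzd7* were the 3 most abundant Frizzled RNAs in every library. *Fzd2* made up 55.9% ± 0.890 of the summed Frizzled value per kb in empty vector, 37.7% ± 0.641 in SAM1 and 41.5% ± 0.258 in SAM2. The share of *Fzd1* was 18.6%, 25.5% and 21.7% in the same order, and that of *Fzd7* 11.9%, 18.5% and 15.6%. The ratio of *Fzd2* to *Fzd7* normalized counts was 2.93 ± 0.157 in empty vector, 1.27 ± 0.0419 in SAM1 and 1.67 ± 0.0300 in SAM2. The summed Frizzled value per kb itself was 3219 ± 51.3 in empty vector, 2769.5 ± 59.4 in SAM1 and 3050.1 ± 9.40 in SAM2. Shares depend on the length used: with the canonical transcript of each gene *Fzd2* made up 48.8%, 31.0% and 34.7%.

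**Figure D3:**
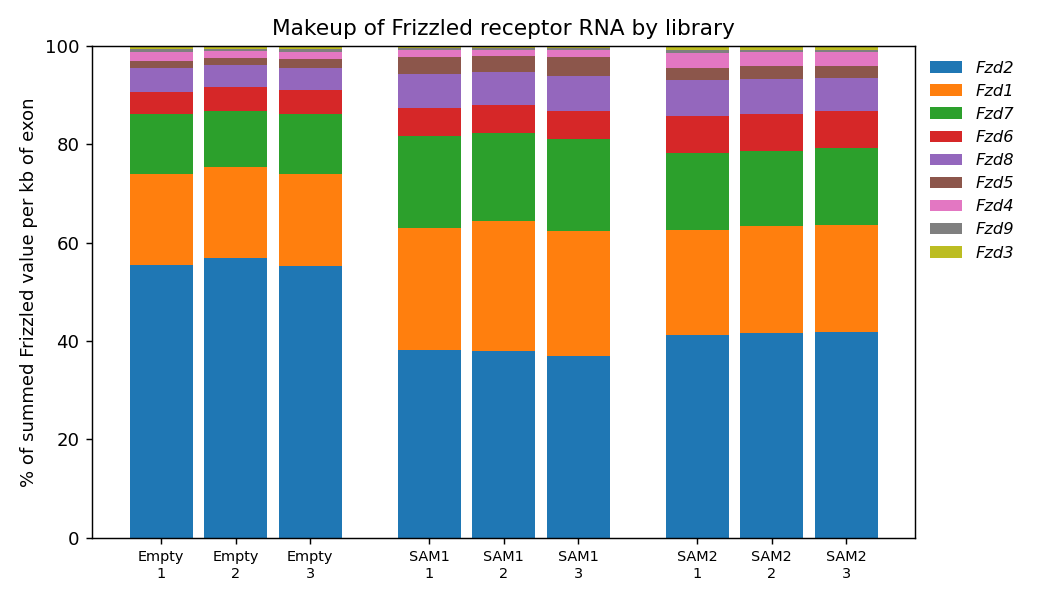
Share of each of 9 Frizzled genes in the summed Frizzled value per kb of merged exon, as stacked bars in percent, 1 bar for each library. The *Fzd2* segment falls from 55.9% on average in empty vector to 37.7% in SAM1 and 41.5% in SAM2, and the *Fzd1* and *Fzd7* segments widen.

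The co-receptors differed from each other. *Lrp5* (chr19:3634821-3736643, minus strand) rose from 2443, 2207 and 2221 in empty vector to 4061, 3757 and 4027 in SAM1 and 4251, 4233 and 4517 in SAM2. No SAM library came near the empty vector libraries. The fold was 1.72 in SAM1 (log2 fold change 0.79, SE 0.046, limma adjusted p = 3.77e-09) and 1.89 in SAM2 (log2 fold change 0.92, SE 0.046, limma adjusted p = 1.09e-09). The further rise from SAM1 to SAM2, 0.13 on the log2 scale, passed the test (limma adjusted p = 0.0227) but not when libraries were quantile normalized or scaled to the same sum, or without SAM1 replicate 2 or SAM2 replicate 3.

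*Lrp6* (chr6:134423439-134544212, minus strand), its closest relative, had 5449.6, 4672 and 5019 in empty vector, 5189.98, 4573 and 5157 in SAM1 and 7331, 6984 and 7497 in SAM2. The SAM1 libraries fell within the range of empty vector, apart from replicate 2 just below it, and the SAM2 libraries lay above both groups. The fold was 0.985 in SAM1 (95% interval of the log2 fold change -0.15 to 0.10, limma adjusted p = 0.757) and 1.44 in SAM2 (log2 fold change 0.53, SE 0.058, limma adjusted p = 2.44e-06). SAM2 exceeded SAM1 by 0.55 on the log2 scale (SE 0.058, limma adjusted p = 3.12e-06). With both lines pooled the change did not pass (95% interval -0.12 to 0.63, limma adjusted p = 0.225). The sign of the small SAM1 value turned with the scaling, to 0.080 after quantile normalization and 0.12 with the same sum per library.

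The ratio of *Lrp5* to *Lrp6* normalized counts was 0.454 ± 0.0158 in empty vector, 0.795 ± 0.0231 in SAM1 and 0.596 ± 0.0143 in SAM2, with no overlap between the 3 groups. Per kb of merged exon the ratio was 0.713, 1.25 and 0.936. All 9 listed co-receptors and other Wnt receptors were in the table, and in each line 5 were higher and 2 lower than empty vector. *Lgr6*, a receptor for R-spondins, rose from 44, 52.5 and 39.7 to 209.8, 215 and 212 in SAM1 and 189.9, 197 and 200.4 in SAM2 (limma adjusted p = 4.24e-10 and 1.07e-09). Its relative *Lgr5* had 11.9 ± 2.37 in empty vector, 67.5 ± 8.24 in SAM1 and 14.8 ± 2.5 in SAM2, a log2 difference of -2.12 between SAM2 and SAM1 (limma adjusted p = 2.26e-06). *Ryk*, an atypical Wnt receptor, fell to 0.646 and 0.627 of empty vector (limma adjusted p = 2.87e-10 and 2.29e-10). *Ror1*, an alternative receptor linked to *Wnt5a*, rose 2.02-fold and 1.91-fold at low counts of 8.94 ± 1.13 in empty vector (limma adjusted p = 0.00286 and 0.00504), and after quantile normalization the SAM1 value did not pass (limma adjusted p = 0.244). Its far more abundant relative *Ror2* fell from 1603 ± 69.5 in empty vector to 1337 ± 52.2 in SAM1 and 1316 ± 39.7 in SAM2 (limma adjusted p = 0.000142 and 7.76e-05).

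Of the secreted inhibitors, *Sfrp1* (chr8:23901263-23939648, plus strand), a secreted Frizzled-related protein that binds Wnt ligands, had the largest change of the 10 genes in SAM1. It had 289.5, 289 and 291 in empty vector, 975, 938 and 947 in SAM1 and 638, 700.1 and 647 in SAM2. The 3 groups were separate, and the lowest SAM library had more than 2 times the highest empty vector value. The fold was 3.29 in SAM1 (log2 fold change 1.71, SE 0.051, limma adjusted p = 4.13e-12) and 2.28 in SAM2 (log2 fold change 1.19, SE 0.051, limma adjusted p = 2.29e-10). SAM2 was below SAM1, with a log2 difference of -0.53 (SE 0.051, limma adjusted p = 1.32e-06). Other listed genes of chromosome 8 had median log2 fold changes of 0.081 and 0.017.

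*Dkk3* (chr7:111712904-111758760, minus strand), a divergent member of the Dickkopf family, fell by a small amount. It had 6005, 5779 and 5912 in empty vector, 5358, 4953 and 5107 in SAM1 and 5042, 5101 and 5023 in SAM2. All SAM libraries were below the empty vector libraries and the lines overlapped. The fold was 0.871 in SAM1 (log2 fold change -0.20, SE 0.033, limma adjusted p = 9.33e-05) and 0.857 in SAM2 (log2 fold change -0.22, SE 0.033, limma adjusted p = 3.89e-05), and between the lines the log2 difference was -0.023 (95% interval -0.094 to 0.047, limma adjusted p = 0.559). With libraries scaled to the same sum the log2 fold changes were -0.057 in SAM1 (limma adjusted p = 0.108) and -0.12 in SAM2 (limma adjusted p = 0.00363), and after quantile normalization that of SAM1 was -0.094. The other 1084 listed genes of chromosome 7 had medians of -0.27 and -0.24, so that relative to them *Dkk3* was 0.071 and 0.021 higher on the log2 scale. The ratio of *Sfrp1* to *Dkk3* normalized counts was 0.0491 in empty vector, 0.186 in SAM1 and 0.131 in SAM2.

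Of 18 secreted and surface inhibitors listed, 9 were in the table. In SAM1 7 were higher and 2 lower, with a median log2 fold change of 1.23, and in SAM2 5 were higher and 4 lower, with a median of 0.079. *Sfrp2*, a close relative of *Sfrp1*, rose from 39.9, 35.7 and 32.7 in empty vector to 276, 294 and 302 in SAM1 and 185, 175 and 203 in SAM2, or 8.05-fold and 5.2-fold (limma adjusted p = 1.51e-11 and 2.41e-10). *Sfrp4* rose 3.46-fold and 2.93-fold from a low 9.44 ± 3.86 (limma adjusted p = 0.000214 and 0.000987). In contrast *Dkk2*, which binds LRP5 and LRP6, fell from 1369.8, 1387 and 1426 to 728, 734 and 714 in SAM1 and 315, 331 and 286 in SAM2 (limma adjusted p = 3.77e-09 and 1.81e-12). *Notum*, an enzyme that removes the lipid of Wnt proteins, went opposite ways in the lines, with 324, 329.8 and 289.7 in empty vector, 735, 764 and 709.97 in SAM1 and 78.1, 107 and 101 in SAM2 (log2 difference -2.95, limma adjusted p = 8.08e-11). *Frzb* was low throughout, at 3.07, 3.15 and 8.18 in empty vector, 14.2, 19.7 and 17.6 in SAM1 and 0, 1.85 and 1.86 in SAM2, and its fall in SAM2 did not pass without empty vector replicate 3 or SAM2 replicate 1 (limma adjusted p = 0.103 and 0.0899). Its rise in SAM1 (log2 fold change 1.75, limma adjusted p = 0.0065) did not pass after quantile normalization (0.97, limma adjusted p = 0.0717). Of the 9 inhibitors, 6 were lower in SAM2 than in SAM1 by limma and the other 3 did not pass.

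R-spondins strengthen Wnt signalling by removing the ubiquitin ligases ZNRF3 and RNF43 from the cell surface. Of 6 such genes 5 were in the table, with 3 higher and 1 lower in each line. *Rspo3* rose from 85.9, 89.3 and 81.8 to 374, 351 and 402 in SAM1 and 325, 319 and 302 in SAM2 (limma adjusted p = 2.9e-11 and 1.53e-10). *Znrf3* rose 1.29-fold and 1.21-fold (limma adjusted p = 0.000204 and 0.00178). *Rnf43*, at 24.2 ± 4.37 in empty vector, was 2.21-fold in SAM1 and 0.584-fold in SAM2 (limma adjusted p = 0.000363 and 0.00754).

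**Figure D4:**
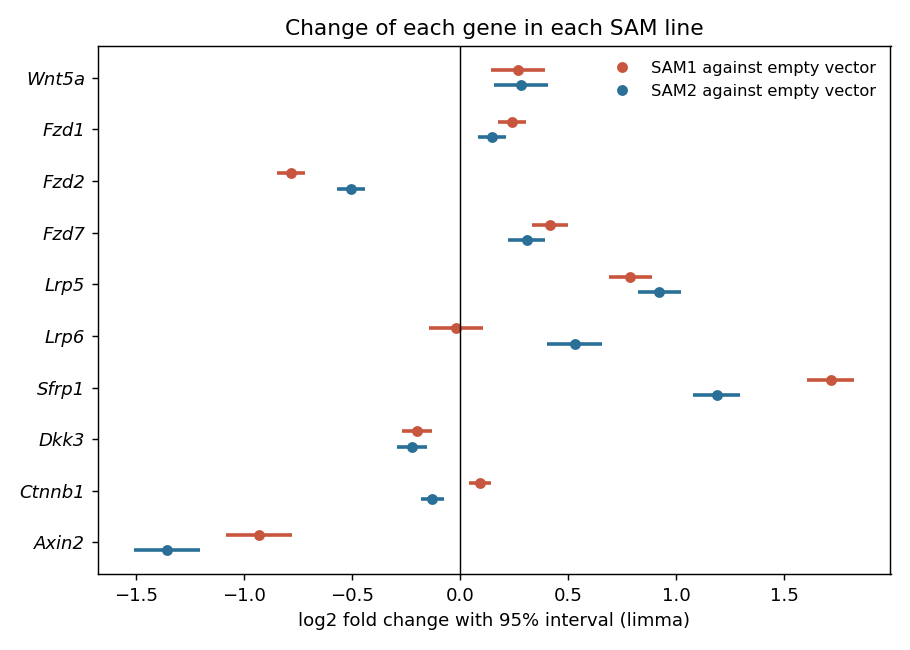
Log2 fold change against empty vector of each of the 10 genes, with 95% intervals from limma, in SAM1 (red) and SAM2 (blue). *Sfrp1* reaches 1.71 and 1.19 and *Axin2* -0.93 and -1.36, the *Lrp6* interval spans 0 in SAM1, and *Ctnnb1* lies on opposite sides of 0 in the lines.

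*Ctnnb1* (chr9:120757422-120789579, plus strand) encodes beta-catenin and was, per kb of exon, the most abundant of the 10 RNAs in all 3 groups. It had 51377, 50547 and 50816 in empty vector, 54430.3, 53426 and 54939 in SAM1 and 46444, 46796 and 46445 in SAM2. The SAM1 libraries were above and the SAM2 libraries below the empty vector libraries, without overlap. The fold was 1.07 in SAM1 (log2 fold change 0.092, SE 0.024, limma adjusted p = 0.00408) and 0.915 in SAM2 (log2 fold change -0.13, SE 0.024, limma adjusted p = 0.000366), and with the lines pooled the log2 fold change was -0.018 (95% interval -0.18 to 0.14, limma adjusted p = 0.842). The difference between the lines was -0.22 on the log2 scale (SE 0.024, limma adjusted p = 5.11e-06). The direction in SAM2 turned with the scaling, to a log2 fold change of 0.13 after quantile normalization (limma adjusted p = 0.00041), and with the same sum per library it was -0.025 and did not pass. In SAM1 the rise grew to 0.40 and 0.23 under these scalings. The opposite-strand gene *Ulk4*, which overlaps it in the annotation, held 133 to 190.4 normalized counts.

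Around beta-catenin, all 18 listed genes of the destruction complex and Dishevelled were in the table, 5 higher and 12 lower in SAM1 and 6 higher and 10 lower in SAM2 (scaled to the same sum, 7 and 7, then 6 and 6; after quantile normalization, 6 and 9, then 7 and 7). Median log2 fold changes were -0.20 and -0.086. The Dishevelled genes, whose products pass the signal from Frizzled to the destruction complex, were split. *Dvl2* rose from 1676 ± 35 to 2364 ± 51 in SAM1 and 2623 ± 50.2 in SAM2 (limma adjusted p = 1.69e-08 and 1.61e-09), and *Dvl1* fell to 0.67 and 0.75 of empty vector (limma adjusted p = 1.28e-09 and 4.97e-08). *Fbxw11*, part of a ubiquitin ligase that marks beta-catenin for degradation, fell to 0.731 and 0.838 (limma adjusted p = 1.94e-08 and 7.02e-06).

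*Axin2* (chr11:108811169-108841609, plus strand) encodes a scaffold of the destruction complex and is widely used as a readout of TCF/LEF activity. It fell from 671, 624.99 and 681 in empty vector to 350.2, 335 and 351 in SAM1 and 279, 259.6 and 233 in SAM2. The 3 groups did not overlap, and SAM2 was the lowest. The fold was 0.524 in SAM1 (log2 fold change -0.93, SE 0.07, limma adjusted p = 5.2e-08) and 0.39 in SAM2 (log2 fold change -1.36, SE 0.07, limma adjusted p = 1.57e-09). SAM2 was lower than SAM1, with a log2 difference of -0.43 (SE 0.07, limma adjusted p = 0.000169). The other listed genes of chromosome 11 had medians of 0.0097 and 0.061.

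The list of beta-catenin targets, *Axin2* included, was divided. Of 16 listed, 12 were in the table, with 7 higher and 5 lower in SAM1 (median log2 fold change 0.35) and 5 higher and 6 lower in SAM2 (median 0.071). *Lef1*, a transcription factor of the TCF/LEF family and itself a target, rose from 53.2, 67.2 and 65.4 in empty vector to 955, 952 and 969 in SAM1 and 152, 147 and 133 in SAM2. That is 15.5-fold in SAM1 (limma adjusted p = 5.51e-13) and 2.32-fold in SAM2 (limma adjusted p = 8.94e-08), with a log2 difference of -2.73 between the lines (limma adjusted p = 6.93e-11). With both lines pooled *Lef1* passed (limma adjusted p = 0.019) but not without empty vector replicate 1, 2 or 3 (limma adjusted p = 0.0651, 0.0533 and 0.0545). Its pooled log2 fold change was then 2.47, 2.63 and 2.61, beside 2.57 with all libraries. The spread in the pooled fit includes the large difference between the lines. *Nkd2*, which binds Dishevelled and restrains Wnt signalling, rose 6-fold and 2.3-fold (limma adjusted p = 2.4e-08 and 4.34e-05). *Tcf7*, also both factor and target, fell from 61.2 ± 4.12 to 32.4 ± 15.1 in SAM1 and 31.5 ± 9.3 in SAM2 (limma adjusted p = 0.00555 and 0.00632). The abundant targets *Ccnd1* and *Myc* had 13074 to 15584 and 12522 to 14446 reads in the empty vector libraries. Both passed as lower in each line, and with the lines pooled *Ccnd1* passed and *Myc* did not. *Znrf3* and *Apcdd1* passed as higher in each line.

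All 15 listed nuclear partners of beta-catenin were in the table, with 10 higher and 2 lower in SAM1 and 6 higher and 6 lower in SAM2 (8 and 5 in SAM2 when scaled to the same sum). *Tcf7l1*, mostly a repressor in this family, rose from 351, 349 and 347 to 734, 622 and 729 in SAM1 and 1069, 1128 and 1109.7 in SAM2 (limma adjusted p = 7.61e-09 and 6.38e-11). Between SAM2 and SAM1, 3 of these genes were higher in SAM2 and 8 lower.

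In the planar cell polarity branch, which *Wnt5a* can feed, 15 of 16 listed genes were in the table, with 9 higher and 4 lower in SAM1 and 12 higher and 2 lower in SAM2. *Celsr1*, a cadherin of that pathway, rose from 24.1 ± 4.58 to 212 ± 2.64 in SAM1 and 64.1 ± 7.01 in SAM2 (limma adjusted p = 4.42e-10 and 1.83e-06). *Prickle2*, a cytoplasmic component, rose 1.7-fold and 2.78-fold (limma adjusted p = 4.01e-06 and 7.29e-09). *Celsr3*, at 8.18, 4.2 and 1.17 in empty vector, rose 6.43-fold and 2.66-fold (limma adjusted p = 0.000139 and 0.0121). *Daam1* and *Ror2* of this list were lower in both lines. *Daam1* had 6539, 5653 and 5474 reads in empty vector, 2822, 2455 and 2705 in SAM1 and 4067, 4238 and 4340 in SAM2.

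Beta-catenin also joins cadherins at cell junctions, and all 10 listed junction genes were in the table, with 7 higher and 2 lower in SAM1 and 4 higher and 4 lower in SAM2 (5 and 3 in SAM2 after quantile normalization). *Cdh3*, P-cadherin, rose from 1019.9, 1021 and 999 to 3225, 3102 and 3211 in SAM1 and 2965, 2969.9 and 3033 in SAM2 (limma adjusted p = 8.28e-14 and 2.56e-13). *Cdh11*, the cadherin typical of mesenchymal cells, fell from 10574 ± 262 to 5861 ± 71.7 and 6255 ± 88.4 (limma adjusted p = 1.2e-11 and 6.06e-11). *Ctnna2*, an alpha-catenin, rose from 12.5 ± 7.35 to 164 ± 8.49 and 70.2 ± 11.9 (limma adjusted p = 3.8e-08 and 2.49e-06). *Cdh1*, E-cadherin, was 2.61-fold of empty vector in SAM1 (limma adjusted p = 0.000106) and 0.953-fold in SAM2 (limma adjusted p = 0.703). It is 1 of the 3 epithelial markers in the table, and *Cldn4* made up most of their sum.

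**Figure D5:**
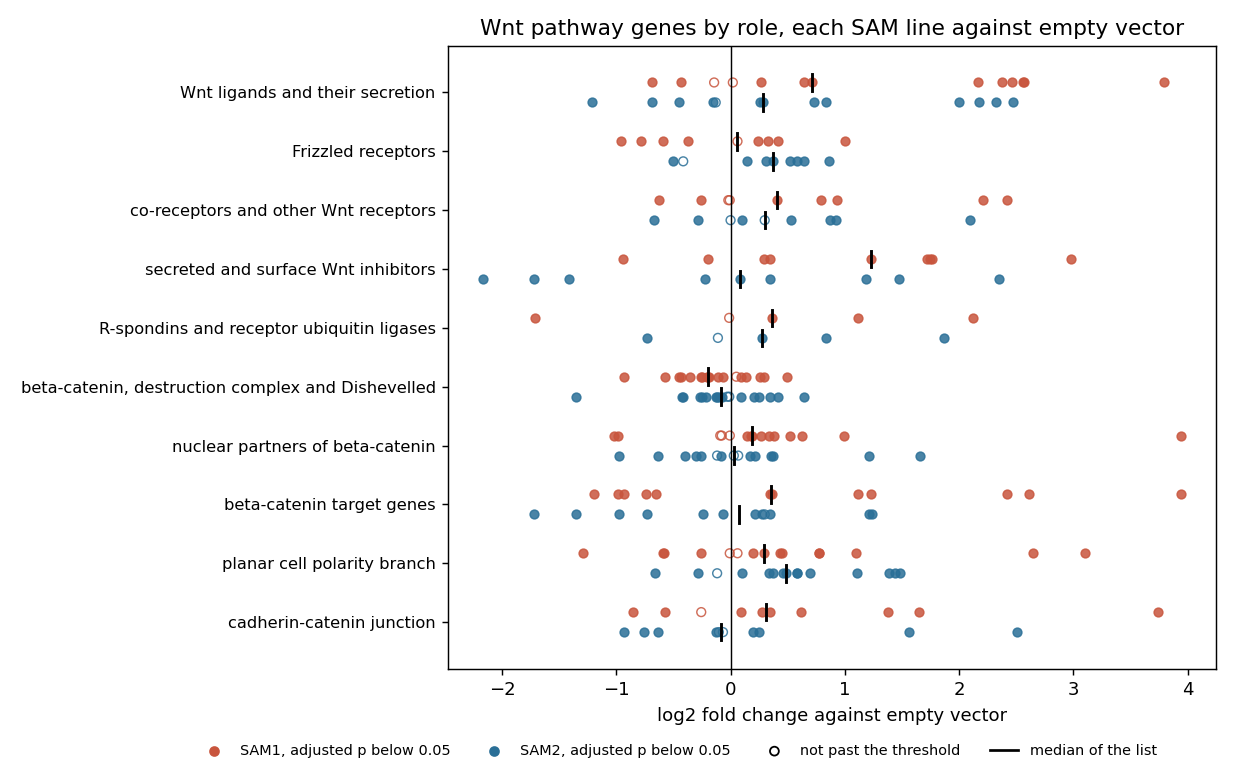
Log2 fold change against empty vector of the listed Wnt pathway genes by role, in SAM1 (red) and SAM2 (blue), with filled points for an adjusted p below 0.05, open points for others and a black bar at the median of each list. A gene can stand in more than 1 list, and the median of the secreted and surface inhibitors is 1.23 in SAM1 and 0.079 in SAM2.

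Over these lists, 92 pathway genes other than the 10 were in the table, of 115 listed. In SAM1 53 were higher and 29 lower, with a median log2 fold change of 0.27, beside 74.3% of all genes called (37.3% higher, 36.9% lower). In SAM2 49 were higher and 30 lower, with a median of 0.18, beside 70.5% (35.2% higher, 35.3% lower). With both lines pooled 40 were higher and 17 lower, beside 53.9%, and between SAM2 and SAM1 32 were higher and 32 lower, beside 60.3%. Scaled to the same sum, the counts were 58 and 24 in SAM1, 51 and 23 in SAM2, and 46 and 14 pooled.

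Levels can be ordered across the 10 genes per kb of merged exon. In empty vector the order was *Ctnnb1* at 6234, *Fzd2* at 1799, *Dkk3* at 863, *Fzd1* at 597, *Fzd7* at 384, *Lrp6* at 327, *Lrp5* at 233, *Wnt5a* at 115, *Axin2* at 95.1 and *Sfrp1* at 60.0, and no neighbours in this order overlapped across libraries. In SAM1 *Lrp5* at 402 stood above *Lrp6* at 322, and *Sfrp1* at 198 stood above *Wnt5a* at 138 and *Axin2* at 49.8. In SAM2 *Fzd7*, *Lrp6* and *Lrp5* came close at 475, 471 and 441, where *Lrp6* overlapped each of the other two across libraries, and *Wnt5a* at 139 overlapped *Sfrp1* at 137. With the length of the canonical transcript instead, *Fzd7* stood above *Fzd1* and *Axin2* above *Wnt5a* in empty vector.

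The genes of the table whose log2 values were most like those of each of the 10 genes were taken over the 9 libraries, which share their 3 groups. Pearson's r was 0.978 for *Wnt5a* with *Nfic*, 0.995 for *Fzd1* with *Trib1*, 0.999 for *Fzd2* with *2310022B05Rik*, 0.997 for *Fzd7* with *Ctnna1* and 0.998 for *Lrp5* with *Cep76*. It was 0.998 for *Lrp6* with *Xpo5*, 0.999 for *Sfrp1* with *Smad6*, 0.991 for *Dkk3* with *Zfp446*, 0.996 for *Ctnnb1* with *Kcna3* and 0.997 for *Axin2* with *Klf8*. The next most alike were *B130055M24Rik* for *Wnt5a*, *Lamc3* for *Fzd1*, *Tap1* for *Fzd2*, *Lrrk2* for *Fzd7*, *Kif13b* for *Lrp5*, *Osmr* for *Lrp6*, *Tpgs2* for *Sfrp1*, *Slc39a10* for *Dkk3*, *Inhba* for *Ctnnb1* and *Vps41* for *Axin2*.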

How the data were processed

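Before they deposited the table, the authors aligned paired reads of 43 bases to GRCm39 (Gencode vM29) with TopHat2 and Bowtie2, allowing 3 mismatches and 20 multihits, counted reads with HTSeq and applied DESeq2 size factors; the deposited signal is this normalized count. They kept genes above 10 in at least 30% of libraries. Values are therefore not raw counts, and 100% of them in each library were whole multiples of the value of 1 read (tolerance 0.01), which gave the reads on listed genes. Groups came from the labels.

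From these values log2(value + 1) was fitted with limma 3.58.1 (R 4.3.3, empirical Bayes with trend) over all 15184 genes, two-sided, with p-values adjusted by Benjamini-Hochberg and called below 0.05. A 2-group fit pooled both SAM lines and a 3-group fit gave each line and the difference between them. Libraries within groups correlated with r of 0.995 to 0.997 and differed by more than sampling noise (chi-square per gene 1.45 to 13.2). Each was counted as 1 sample, although this spread may be technical. The fits were tested on simulated data with known changes.

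The genes and lists were chosen with earlier results of these data known. Of each list, the text names up to 3 genes that passed with both lines pooled, by largest pooled change. All 6 SAM libraries of these genes lay on the same side of empty vector. It also names the gene of each list with the largest difference between lines, and for each of the 10 genes the 2 most alike. The few others were chosen after their values were seen. Coordinates and exon lengths are from GENCODE vM39 (GRCm39), where 14791 gene names had 1 entry, 68 had several and 325 had none. Alternatives were other pseudocounts, filters and scalings, edgeR 4.0.16 and DESeq2 1.42.0 on the recovered reads, a replicate block, the mean of the lines, subtraction of the chromosome's median and each library left out.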

Additional observations from a re-analysis of the deposited data

Results flagged for a closer look

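In the 6 SAM libraries, *Ror1* in SAM1 replicate 1 stood apart from the others (21.8 normalized counts, next 17.8), with a gap of 0.664 of the whole range, above the limit for 6 values. Such a gap arises by chance in about 1 of 20 groups, and 43 genes were examined. The effects of SAM1 and SAM2 against empty vector differed by the limma test of SAM2 against SAM1 for 34 of these genes, beside 60.3% of all genes, and several of the 43 were named because they had the largest difference between the lines in their list, so the count is not independent of that choice. The values that follow are log2 differences, SAM2 minus SAM1.

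Of the 10 Wnt signalling genes, the difference was 0.55 for *Lrp6*, 0.28 for *Fzd2*, 0.13 for *Lrp5*, -0.094 for *Fzd1*, -0.11 for *Fzd7*, -0.22 for *Ctnnb1*, -0.43 for *Axin2* and -0.53 for *Sfrp1*. Among other ligands, receptors and R-spondin genes it was -3.68 for *Wnt7a*, -1.62 for *Wnt2*, -0.25 for *Wnt10b*, 1.24 for *Fzd4*, 0.19 for *Fzd8*, -0.36 for *Fzd5*, -2.12 for *Lgr5*, -0.25 for *Rspo3* and -1.85 for *Rnf43*. For secreted inhibitors it was -3.16 for *Frzb*, -2.95 for *Notum*, -1.22 for *Dkk2* and -0.63 for *Sfrp2*. For Dishevelled, beta-catenin turnover and nuclear genes it was 0.16 for *Dvl1*, 0.15 for *Dvl2*, 0.20 for *Fbxw11*, 0.67 for *Tcf7l1*, -1.38 for *Nkd2* and -2.73 for *Lef1*. For polarity and junction genes it was 0.71 for *Prickle2*, -1.71 for *Celsr1*, -1.21 for *Celsr3*, 0.094 for *Cdh11*, -0.089 for *Cdh3*, -1.23 for *Ctnna2* and -1.48 for *Cdh1*. *Wnt7a*, *Fzd4*, *Frzb*, *Rnf43*, *Notum* and *Ctnnb1* passed against empty vector in both lines with opposite signs, though after quantile normalization *Frzb* did not pass in SAM1 and *Ctnnb1* was above empty vector in both lines. *Lrp6* (log2 fold changes -0.02 and 0.53) and *Cdh1* (1.38 and -0.10) also had opposite signs, but the smaller value of each did not pass. The call between lines was lost on leaving out at least 1 library for *Fzd1*, *Fzd7*, *Lrp5*, *Wnt2*, *Rspo3*, *Celsr3* and *Cdh3*, and under another scaling for *Lrp5*, *Celsr3* and *Cdh11*.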

How the results depend on the processing

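The number of the 10 genes called stayed between 7 and 9 for both lines pooled, 8 and 9 in SAM1, 9 and 10 in SAM2 and 6 and 8 between the lines over the alternatives that give a test (subtraction of the chromosome's median gives values only), and edgeR and DESeq2 on the recovered reads called the same number in each direction (8168 and 8468 of all genes pooled, against 8179 by limma). Leaving out a library gave 8 pooled, 9 in SAM1, 10 in SAM2 and 6 to 8 between the lines. For the other 92 pathway genes it gave 47 to 59 pooled, and the mean of the lines in the 3-group fit gave 82 against 57, with *Lrp6* then passing (limma adjusted p = 0.00044). The cause of the reversals was not tested. After quantile normalization *Ctnnb1* was 0.27 pooled and 0.13 in SAM2, *Lrp6* 0.080 in SAM1 and *Wnt5a* -0.020 between the lines, all as log2 values; *Dkk3* passed between the lines (-0.086) and *Lrp5* no longer did (0.074). With that scaling 2 of the 10 genes were higher and 6 lower in SAM2 than in SAM1. With the same sum per library *Ctnnb1* was 0.10 pooled, *Lrp6* 0.12 in SAM1 and *Wnt5a* -0.025 between the lines; *Dkk3* no longer passed pooled (-0.088) or in SAM1, nor did *Ctnnb1* in SAM2 and *Lrp5* between the lines (0.096). After subtraction of the chromosome's median *Wnt5a* was -0.27 pooled, -0.26 in SAM1, -0.29 in SAM2 and -0.035 between the lines, *Dkk3* 0.032, 0.071 and 0.021 against empty vector, and *Ctnnb1* 0.12 pooled. Leaving out a library gave a range of -0.044 to 0.0043 for *Ctnnb1* pooled (above 0 without SAM2 replicate 1, 2 or 3), -0.075 to 0.039 for *Lrp6* in SAM1 (above 0 without empty vector replicate 1 or SAM1 replicate 2), -0.052 to 0.054 for *Wnt5a* between the lines (below 0 without SAM1 replicate 2) and -0.049 to 0.0073 for *Dkk3* between the lines (above 0 without SAM1 replicate 1).

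Deviations from the group means correlated weakly between libraries with the same replicate number (r of 0.0024 to 0.12 over 9 pairs, mean 0.053). The mean of -0.027 over 18 pairs with different numbers follows from taking deviations within groups, so it is no separate comparison. Whether the numbers pair the samples cannot be told from these values. The replicate block lowered the calls over all genes from 8179 to 7343 pooled. It raised them from 11275 to 11631 in SAM1, from 10699 to 11095 in SAM2 and from 9162 to 9812 between the lines. With it 8, 9, 10 and 8 of the 10 genes were called for both lines pooled, SAM1, SAM2 and the difference between the lines. Of the 92 other genes 53 were called pooled. Depth limits *Wnt2*, *Wnt7b*, *Frzb* and *Celsr3*, which had at most a few reads in some libraries, and not the 10 genes, whose lowest normalized count was 233.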
